A study of Mus musculus with 8 samples.

Results

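The genes described here are 35 genes of mitochondrial and peroxisomal fatty acid oxidation, taken by symbol from the 41325 gene symbols that each library lists. They comprise 5 genes of the carnitine shuttle, 4 mitochondrial acyl-CoA dehydrogenases, 5 mitochondrial hydratases, hydroxyacyl-CoA dehydrogenases and thiolases, 3 auxiliary enzymes for unsaturated chains, 3 electron transfer flavoprotein genes, 7 genes of peroxisomal β-oxidation and catalase, 6 genes of peroxisomal transport and biogenesis, and 2 acyl-CoA thioesterases. The RNA came from C3H10T1/2 cells, mouse mesenchymal stem cells (MSCs) that hormones can turn into adipocytes. A control line (shControl) was set beside stable knockdown lines for KDM4D, a histone demethylase, NFIB, a transcription factor, and MLL1, a histone methyltransferase encoded by *Kmt2a*. RNA-seq of each line before (day 0) and 5 days after induction gave 8 libraries, 1 for each line and day. Every line received the same induction, in which cells past confluence (day 0) were given insulin, dexamethasone and isobutylmethylxanthine until day 2, then insulin alone, and then medium with serum. The labels give the genotype of the shControl cells as WT and those of the other lines as knockdowns. The knockdown lines were isolated as puromycin-resistant clones that carry an shRNA vector. A difference between lines therefore cannot be told apart from a difference between clones, and the clone that was sequenced is not given in the sources used here.

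Fatty acids enter mitochondria as carnitine esters and are shortened there by repeated rounds of dehydrogenation, hydration, a further dehydrogenation and thiolytic cleavage. The electrons of the first step pass through the electron transfer flavoprotein to the respiratory chain. Very long and branched chains are first shortened in peroxisomes, where the first oxidation makes hydrogen peroxide that catalase removes. Adipocytes are known for storing fatty acids as triglyceride, yet many genes of both pathways are known targets of the PPAR family of nuclear receptors, whose member PPARγ drives adipocyte formation.

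The deposited values are RPKM, reads per kilobase of exon scaled to the mapped reads of the library. They correct for exon length and depth but not for differences in what the libraries are composed of. Between 1.58e+07 and 3.82e+07 mapped reads per library were recovered from the steps of the values, and 3 reads in a gene with 1 kb of exons correspond to an RPKM between 0.0785 and 0.189. Ribosomal RNA-like sequences of 2 genes took 7.95% to 10.5% of the mapped reads at day 0 and 3.07% to 3.62% at day 5. *Nfib* and *Kmt2a* were lower in their own knockdown lines on both days, while *Kdm4d* had at most 13 reads in shControl cells, too few to check the knockdown at day 0. Of 9 mesenchymal and fibroblast markers, 8 or 9 were over an RPKM of 1 in each library, as the labelled cell type would have. The exception was *Thy1*, which at day 0 had 25.0 in shControl cells and 11.8 in shMLL1 cells but 0.0171 in shKDM4D and 0.0179 in shNFIB cells. Markers of leukocytes, endothelium, skeletal muscle, and epithelium or hepatocytes were at an RPKM of 1.64 at most, and *Cd3e*, *Myod1* and *Epcam* were at 0 in all 8 libraries. The 9 adipocyte markers summed to RPKM values from 4.09 to 10.9 at day 0, and at day 5 to 794 in shControl cells. In the knockdown lines their sum at day 5 was 39.2 (shKDM4D), 12.01 (shNFIB) and 12.3 (shMLL1). In bulk RNA, fewer cells of a type and less RNA per cell cannot be told apart.

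Promoters were examined for the letters that PPAR and its partner RXR are known to recognise, a pair of AGGTCA motifs with 1 base between them (DR1), read on both strands with at most 2 mismatches over 12 letters. Of the 35 genes, 28 had a promoter in the RefSeq table of GRCm38.p6, which runs from 250 bases before the start to 50 bases after it. Of their 31 promoters, 4 (12.9%) held a match, against 1268 of 32851 (3.86%) in the whole table. The ERR motif TCAAGGTCA, which can overlap a DR1 match, was in none of the 31 and in 0.423% of all. The 250 bases before the start are shown for the 3 genes whose match lies there, 5′ to 3′ on the strand of the gene, with the match in capitals. *Cat* lies at chr2:103485154-103485403 (minus strand), *Echs1* at chr7:140116422-140116671 (minus strand) and *Etfa* at chr9:55512244-55512493 (minus strand, match on the opposite strand).
Cat: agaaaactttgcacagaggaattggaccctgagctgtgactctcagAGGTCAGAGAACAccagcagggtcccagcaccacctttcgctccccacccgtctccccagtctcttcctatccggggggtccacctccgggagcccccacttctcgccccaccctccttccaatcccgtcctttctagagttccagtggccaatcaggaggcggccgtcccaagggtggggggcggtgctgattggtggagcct
Echs1: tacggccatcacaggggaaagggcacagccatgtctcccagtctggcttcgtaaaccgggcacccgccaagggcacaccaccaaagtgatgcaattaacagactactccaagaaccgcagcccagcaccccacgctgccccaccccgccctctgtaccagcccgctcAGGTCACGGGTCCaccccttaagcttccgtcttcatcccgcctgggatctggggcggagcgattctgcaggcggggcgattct
Etfa: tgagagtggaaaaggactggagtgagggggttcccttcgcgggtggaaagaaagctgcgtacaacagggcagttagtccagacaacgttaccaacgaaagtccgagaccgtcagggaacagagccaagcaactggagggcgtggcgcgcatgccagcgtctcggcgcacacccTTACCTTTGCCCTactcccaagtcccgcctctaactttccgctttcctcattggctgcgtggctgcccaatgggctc
The match in *Slc25a20* (AGGTGAAAGGTCG) begins at base 7 after the start, on the strand of the gene. These matches are of letters only and no binding was measured here.

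Levels differed widely among the genes. Of the 35 genes, 28 had an RPKM over 1 in all 8 libraries and 12 had an RPKM over 10 in all 8. The highest RPKM values were those of *Etfb* (110.4 in shControl cells at day 5), which encodes a subunit of the electron transfer flavoprotein, *Cat* (103), which encodes catalase, and *Acadl* (92.3), which encodes the long-chain acyl-CoA dehydrogenase. In 4 genes the RPKM did not reach 1 in any library, namely *Cpt1b*, *Ehhadh*, *Acaa1b* and *Acot1*. The RPKM summed over the 35 genes at day 0 was 520 in shControl cells, 479 in shKDM4D cells, 459 in shNFIB and 453 in shMLL1 cells, and at day 5 it was 896, 648, 590 and 679. The sum was thus 1.72 times as high at day 5 as at day 0 in shControl cells, 1.35 times in shKDM4D cells, 1.29 times in shNFIB and 1.498 times in shMLL1 cells. Of the increase in shControl cells, 59.6% came from 5 genes, *Cat*, *Scp2*, *Etfb*, *Acadm* and *Acaa2*.

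**Figure D1:**
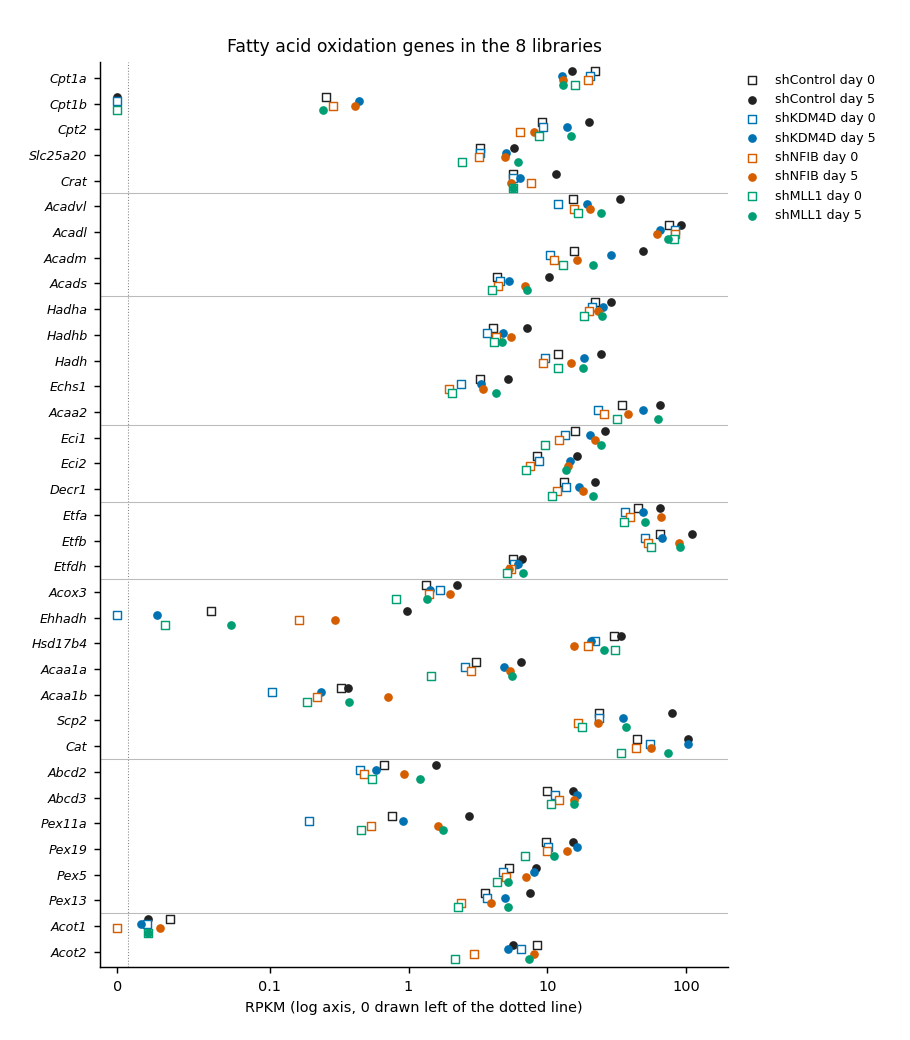
RPKM on a log axis for each of the 35 genes (rows, grouped by role between the grey lines) in the 8 libraries, 1 point per library, with squares for day 0 and filled circles for day 5 and a colour for each line. For most genes the filled circle of shControl cells lies farthest right, and *Cpt1b*, *Ehhadh*, *Acaa1b* and *Acot1* lie below 1 throughout.

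The first question was how the genes changed during adipogenic differentiation of the control cells. With 1 library per condition there is no test between conditions, so each difference is given as a log2 ratio of RPKM with an exact 95% interval that covers counting error only. A gene is said to have risen or fallen, or to be higher or lower past 2-fold, where the ratio passed 2-fold and at least 1 of the libraries had more than 3 reads. Of the 35 genes, 13 rose in shControl cells (13.0% of the 11513 genes with an RPKM over 1 in some library did so) and 1, *Cpt1b*, fell (8.56% of those genes). With 1 added to each RPKM, 7 rose and 0 fell, with no share of all genes given at that setting. The interval lay above 0 for 30 genes and below 0 for 3, against 40.6% and 36.7% of the 11448 of those genes whose reads were recovered, the background of every count of intervals below. The median log2 ratio was 0.79, with medians of the interval bounds at 0.65 and 0.97, against 0.03 for all 11513 genes. The genes that rose were *Pex11a*, *Scp2*, *Acadm*, *Acads*, *Abcd2*, *Cat*, *Cpt2*, *Acadvl*, *Acaa1a*, *Pex13*, *Crat*, *Hadh* and *Ehhadh*, so that every role except the auxiliary enzymes, the electron transfer flavoproteins and the thioesterases was represented.

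The second question was whether the same genes changed in the knockdown lines. In shKDM4D cells 5 of the 35 rose (12.8% of all 11513 genes) and 0 fell (8.44%), in shNFIB cells 3 rose (12.6%) and 0 fell (4.96%), and in shMLL1 cells 13 rose (20.4%) and 0 fell (6.89%). The median log2 ratio of the genes was 0.52 in shKDM4D cells, 0.56 in shNFIB and 0.80 in shMLL1 cells on the deposited scale and 0.03, 0.10 and 0.17 over all 11513 genes. Divided by *Gapdh*, the medians were 0.99 in shKDM4D and -0.0049 in shNFIB cells, with all genes at 0.50 and -0.47, and with quantile normalization the shMLL1 median was 0.52. Intervals above 0 were found for 24, 27 and 29 genes in the 3 lines, against 39.4%, 41.4% and 51.3% of all genes. In all 4 lines 22 genes had an interval above 0 (24.8% of all genes), whereas only *Pex11a* rose past 2-fold in all 4 (6.93%) and only *Cpt1a* had an interval below 0 in all 4 (20.0%). On the deposited scale the count of genes that rose was above the share of all genes in shMLL1 cells, close to it in shKDM4D and below it in shNFIB cells. Every gene behind the share had an RPKM over 1 in some library, while the 35 were counted whatever their level. Of the 5 in shKDM4D cells, *Cpt1b* and *Acaa1b* never reached an RPKM of 1, and the other 3 of 31 genes lay below the share. *Cpt1b*, *Acaa1b* and *Ehhadh*, which never reached it either, were among the 13 in shMLL1 cells. The same held for *Acaa1b* in shNFIB and *Ehhadh* in shControl cells. The counts also moved with the processing. In shMLL1 cells 4 of 31 rose with quantile normalization and 6 of 35 with 1 added to each RPKM, and in shKDM4D cells 16 rose when divided by *Gapdh* and 2 with 1 added. The share of all genes that rose is not given under these settings. Dividing by *Gapdh* also moved the median of all genes, so the 16 cannot be read as a result about these genes.

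**Figure D2:**
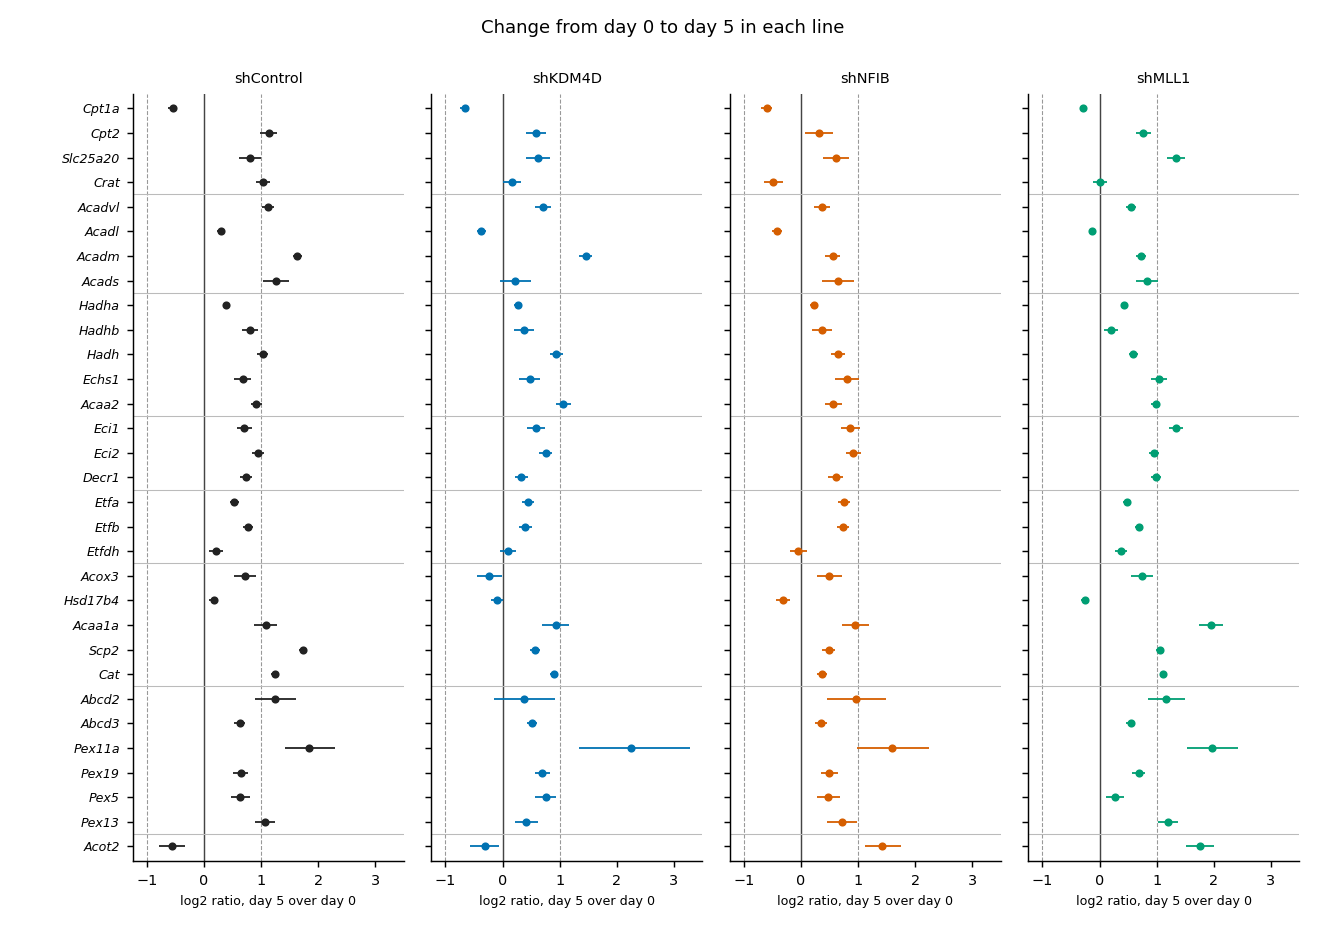
Log2 ratio of day 5 to day 0 (x axis) for the 31 genes with an RPKM over 1 in some library, in a panel for each line, with exact 95% counting intervals as bars and dashed lines at 2-fold. Most points lie right of 0 in every panel, *Cpt1a* lies left of 0 in all 4, and *Acot2* lies left of 0 in shControl and shKDM4D but right of it in shNFIB and shMLL1 cells.

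**Figure D3:**
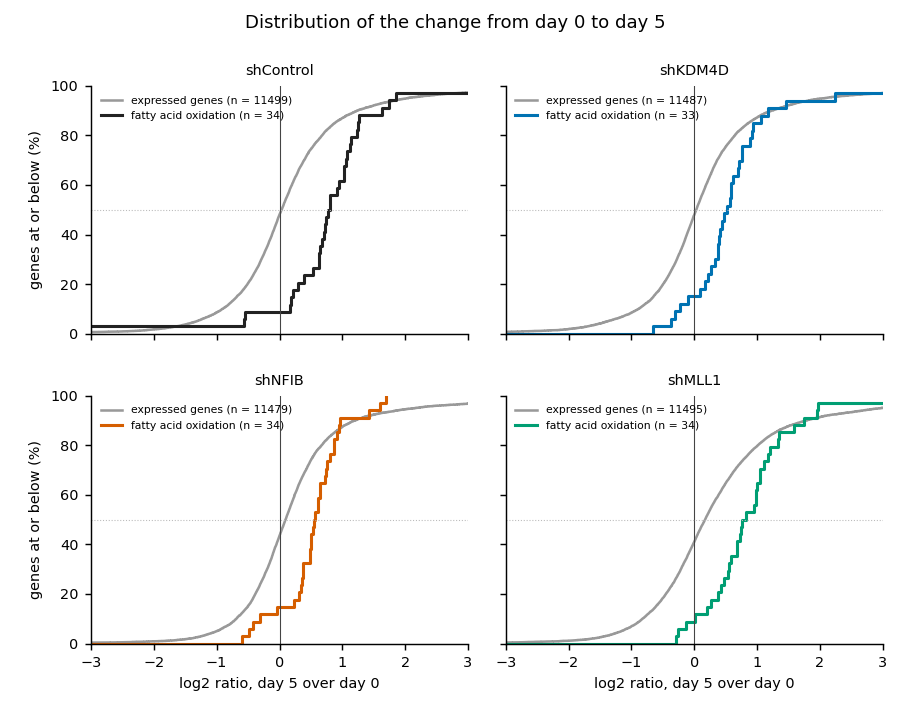
Cumulative share of genes (y axis, %) at or below each log2 ratio of day 5 to day 0 (x axis) in a panel for each line, for the genes with an RPKM over 1 in some library and reads on at least 1 day (grey) and for the fatty acid oxidation genes with more than 3 reads on at least 1 day (coloured). The coloured curve crosses 50% at 0.79 in shControl cells, 0.52 in shKDM4D cells, 0.56 in shNFIB and 0.80 in shMLL1 cells, right of the grey curve in each.

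The third question was how the knockdown lines differed from shControl cells on the same day. At day 0, 0 of the 35 genes were higher past 2-fold and 3 were lower in shKDM4D cells (1.98% and 4.26% of all 11513 genes), 1 was higher and 1 lower in shNFIB cells (2.95% and 6.05%), and 0 were higher and 3 lower in shMLL1 cells (1.67% and 7.43%). At day 5, 1 was higher and 4 were lower in shKDM4D cells (1.88% and 4.57%), 1 was higher and 6 lower in shNFIB cells (5.54% and 5.67%), and 1 was higher and 4 lower in shMLL1 cells (5.25% and 4.02%). The single gene higher at day 5 was *Cpt1b* in each line. On the deposited scale the counts of lower genes were above the share of all genes in each line at day 5. Each of these counts included *Ehhadh*, which never reached an RPKM of 1, unlike the genes behind the share. At day 0 the count was near the share in shMLL1 and below it in shNFIB cells. In shKDM4D cells the 3 lower genes were above the share, but *Cpt1b* and *Acaa1b* never reached an RPKM of 1, as every gene behind the share did. Among the 31 genes that did, only *Pex11a* was lower there, below the share. With 1 added to each RPKM, 1 gene was lower in shKDM4D and 2 in shMLL1 cells at day 5, and 0 and 1 at day 0, with no share of all genes given at that setting. All of these comparisons share the shControl library of their day, so a value particular to that library enters each of them. At day 5 the median log2 ratio of a knockdown line to shControl cells was -0.47 in shKDM4D cells, -0.35 in shNFIB and -0.37 in shMLL1 cells, against 0.01, 0.09 and 0.07 over all genes. The shMLL1 median was -0.73 when divided by *Gapdh*, with all genes at -0.29. The interval lay below 0 for 26, 28 and 25 genes, against 28.6%, 28.0% and 28.5% of all genes. At day 0 the medians were -0.14, -0.16 and -0.30, against -0.003, 0.03 and -0.07 over all genes, and when divided by *Gapdh* they were -0.54, 0.48 and -0.51, with all genes at -0.40, 0.67 and -0.28. An interval below 0 was found for 16, 16 and 22 genes at day 0, against 27.4%, 29.6% and 40.2% of all genes. In all 3 lines 20 genes had an interval below 0 at day 5 (8.81% of all genes), and *Scp2* and *Ehhadh* were lower past 2-fold in all 3 (1.22%). The shControl library had the highest RPKM of the 4 lines for 26 of the 35 genes at day 5 (17.3% of all genes) and for 18 at day 0 (23.5%).

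**Figure D4:**
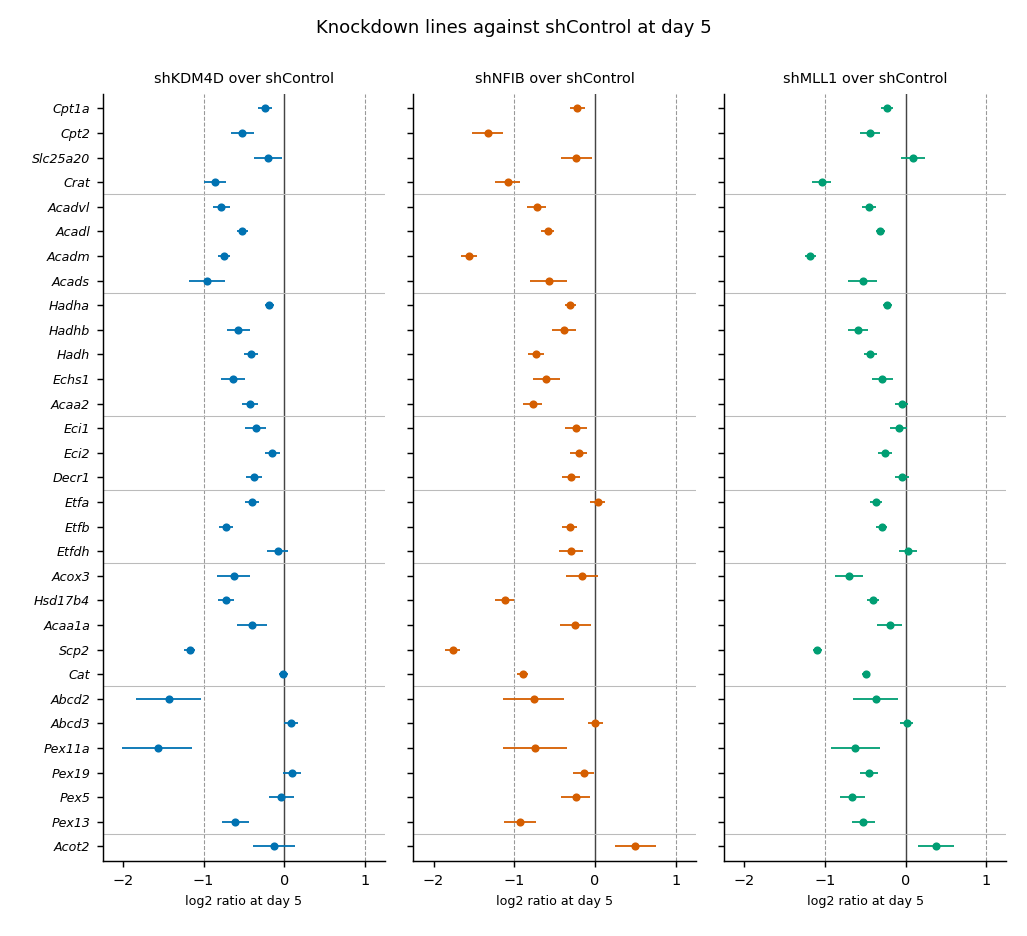
Log2 ratio of each knockdown line to shControl cells at day 5 (x axis) for the 31 genes with an RPKM over 1 in some library, with exact 95% counting intervals as bars and dashed lines at 2-fold. Most points lie left of 0 in the 3 panels, which share the shControl library, and *Scp2* lies left of the 2-fold line in each.

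The change from day 0 to day 5 was also compared directly between lines, as the log2 change of a knockdown line minus that of shControl cells. Genes with reads in all 4 libraries concerned, and with more than 3 in at least 1 of them, were compared. The change was smaller than in shControl cells for 26 of 32 such genes in shKDM4D cells, for 28 of 33 in shNFIB and for 18 of 33 in shMLL1 cells, against 48.2%, 44.0% and 35.7% of all genes. The median difference was -0.19 in shKDM4D cells, -0.25 in shNFIB and -0.05 in shMLL1 cells, against 0.01, 0.07 and 0.15 over all genes. The interval of the difference is not exact but a log-normal approximation from the reads of the 4 libraries, which is rough for genes with few reads. It lay below 0 for 18, 17 and 13 genes (20.7%, 23.7% and 21.0% of all genes). It lay above 0 for 0, 2 and 8 (22.0%, 32.4% and 43.0%). In shMLL1 cells 22 genes had an interval below 0 against shControl cells at day 0 and 25 at day 5.

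In the carnitine shuttle, *Cpt1a* and *Cpt1b* encode the outer-membrane carnitine palmitoyltransferases that start the transfer, *Slc25a20* the carnitine-acylcarnitine carrier, *Cpt2* the inner-membrane transferase and *Crat* carnitine acetyltransferase, which handles short acyl groups. The values of each gene follow in the order shControl, shKDM4D, shNFIB and shMLL1. The RPKM of *Cpt2* (chromosome 4, 107903981 to 107923610 of GRCm38, protein coding) was 9.11, 9.23, 6.39 and 8.66 at day 0 and 19.9, 13.9, 7.95 and 14.7 at day 5. The control value at day 5 was the highest of the 8 and the shNFIB value at day 5 was below every other day 5 value. The log2 ratio of day 5 to day 0 of *Cpt2* was 1.13 (0.98 to 1.28) in shControl and 0.32 (0.08 to 0.55) in shNFIB cells. The ratio of shNFIB to shControl cells at day 5 was -1.33 (-1.52 to -1.14). At day 5 *Cpt2* was also lower in shNFIB than in shKDM4D cells, with a log2 ratio of shKDM4D to shNFIB of 0.81 (0.61 to 1.01).

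The RPKM of *Crat* (chromosome 2, 30400471 to 30415813) was 5.69, 5.67, 7.66 and 5.63 at day 0 and 11.6, 6.40, 5.48 and 5.65 at day 5. *Crat* rose in shControl cells, with a log2 ratio of 1.03 (0.90 to 1.16), while the ratio was 0.17 (0.02 to 0.33) in shKDM4D cells, -0.48 (-0.65 to -0.31) in shNFIB and 0.01 (-0.11 to 0.12) in shMLL1 cells. At day 0 the shKDM4D and shMLL1 values differed from the control value by less than the counting interval. At day 5 all 3 knockdown lines lay below it, by a log2 ratio of -0.86 in shKDM4D cells, -1.08 in shNFIB and -1.04 in shMLL1 cells. The difference of the changes from shControl cells was -0.86 (-1.06 to -0.66), -1.51 (-1.72 to -1.30) and -1.03 (-1.20 to -0.85).

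*Cpt1a* went the other way, with an RPKM of 22.2, 20.3, 19.7 and 15.7 at day 0 and 15.1, 12.8, 13.0 and 12.9 at day 5. Each day 5 value was below each day 0 value. The log2 ratio of day 5 to day 0 ranged from -0.66 (-0.74 to -0.58) in shKDM4D to -0.28 (-0.34 to -0.22) in shMLL1 cells over the 4 lines. *Slc25a20* ranged from 2.43 in shMLL1 cells at day 0 to 6.13 in the same line at day 5. It rose past 2-fold only in that line, with a log2 ratio of 1.33 (1.17 to 1.49). *Cpt1b* had 23, 0, 18 and 0 reads at day 0 and 0, 32, 22 and 31 reads at day 5. Of its exon bases, 81.4% also belong to *Gm44502*, a read-through gene on the same strand, which had 0, 13, 0 and 53 reads at day 0 and 23, 0, 0 and 16 at day 5. *Gm44502* had reads in each library in which *Cpt1b* had none, so that the calls of *Cpt1b* cannot be told apart from a different division of the shared reads.

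The mitochondrial acyl-CoA dehydrogenases carry out the first oxidation, each on its own chain lengths, very long (*Acadvl*), long (*Acadl*), medium (*Acadm*) and short (*Acads*). The RPKM of *Acadm* (chromosome 3, 153922357 to 153944632) was 15.6, 10.5, 11.2 and 12.9 at day 0 and 48.5, 28.9, 16.4 and 21.3 at day 5. The control value at day 5 was above all others, followed by shKDM4D, shMLL1 and shNFIB cells at the same day. *Acadm* rose with a log2 ratio of 1.63 (1.55 to 1.72) in shControl and 1.46 (1.34 to 1.58) in shKDM4D cells, against 0.55 (0.42 to 0.69) in shNFIB and 0.73 (0.65 to 0.81) in shMLL1 cells. Against shControl cells at day 5 it was lower past 2-fold in shNFIB (-1.56) and shMLL1 cells (-1.18), and at -0.75 in shKDM4D cells. Its level in shKDM4D cells was above that in shNFIB cells by 0.81 (0.71 to 0.92) and above that in shMLL1 cells by 0.43 (0.36 to 0.51) on the log2 scale.

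The RPKM of *Acadvl* was 15.3, 11.9, 15.6 and 16.6 at day 0 and 33.3, 19.4, 20.2 and 24.3 at day 5. It rose in shControl cells (1.12, 1.01 to 1.23), and its ratios to shControl cells at day 5 were -0.78, -0.72 and -0.46. Of the exon bases of *Acadvl*, 42.9% are overlapped on the opposite strand by *Dvl2*, whose RPKM lay between 5.22 and 7.02 in all 8 libraries. Whether the counting used strand is not given in the sources used here. The RPKM of *Acads* was 4.30, 4.53, 4.44 and 4.01 at day 0 and 10.3, 5.30, 6.93 and 7.13 at day 5. *Acads* had a log2 change of 1.26 (1.04 to 1.49) in shControl but 0.23 (-0.05 to 0.50) in shKDM4D cells. *Acadl* was the dehydrogenase with the highest level, with an RPKM of 75.0, 83.3, 82.4 and 81.9 at day 0 and 92.3, 64.4, 61.7 and 74.4 at day 5. The log2 ratio of day 5 to day 0 of *Acadl* was positive in shControl cells (0.30, 0.23 to 0.37) and negative in the other lines. At day 0 its knockdown values lay between 81.9 and 83.3, above the control value.

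Among the hydratases, hydroxyacyl-CoA dehydrogenases and thiolases, *Hadha* and *Hadhb* encode the subunits of the trifunctional protein for long chains, *Echs1* the short-chain hydratase, *Hadh* the hydroxyacyl-CoA dehydrogenase and *Acaa2* the thiolase. All 5 had an interval above 0 from day 0 to day 5 in each of the 4 lines. The RPKM of *Hadh* was 11.99, 9.54, 9.38 and 11.98 at day 0 and 24.4, 18.3, 14.7 and 18.1 at day 5, and it rose in shControl cells, with a log2 ratio of 1.03 (0.93 to 1.12). The ratio of *Hadh* was 0.94 in shKDM4D cells, 0.65 in shNFIB and 0.59 in shMLL1 cells. *Acaa2* was at 34.6, 23.2, 25.8 and 31.9 at day 0 and 65.2, 48.6, 38.2 and 63.1 at day 5. The shMLL1 value of *Acaa2* at day 5 was within the counting interval of the control value (-0.05, -0.13 to 0.03), whereas shNFIB cells lay lower (-0.77, -0.89 to -0.66). The genes of the trifunctional protein moved by unequal amounts in shControl cells, with 0.39 (0.34 to 0.45) for *Hadha* and 0.81 (0.67 to 0.95) for *Hadhb*. The largest log2 change of *Echs1* was that of shMLL1 cells (1.04, 0.91 to 1.18).

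The auxiliary enzymes *Eci1* and *Eci2*, which are enoyl-CoA isomerases, and *Decr1*, the dienoyl-CoA reductase, allow unsaturated chains to be oxidised. Their log2 changes were between 0.33 (*Decr1* in shKDM4D cells) and 1.34 (*Eci1* in shMLL1 cells) over the 4 lines, with every interval above 0. The RPKM of *Eci1* was 15.9, 13.5, 12.1 and 9.62 at day 0 and 25.9, 20.3, 22.1 and 24.4 at day 5. The shMLL1 value of *Eci1* was the lowest at day 0 (-0.73, -0.87 to -0.59 against shControl cells) and was within the counting interval of the control value at day 5 (-0.09, -0.19 to 0.02). None of the 3 genes was lower past 2-fold in any knockdown line on either day.

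*Etfa* and *Etfb* encode the subunits of the electron transfer flavoprotein and *Etfdh* its dehydrogenase in the inner membrane. The RPKM of *Etfb* was 64.6, 50.7, 53.3 and 55.8 at day 0 and 110.4, 67.0, 88.7 and 89.8 at day 5. Its log2 change was 0.77 (0.69 to 0.86) in shControl and 0.40 (0.29 to 0.51) in shKDM4D cells. Of the exon bases of *Etfb*, 58.2% are shared with *Gm45233* on the same strand, whose RPKM was at most 0.633. The RPKM of *Etfa* was 44.7, 36.0, 39.4 and 35.9 at day 0 and 64.7, 49.1, 66.2 and 50.2 at day 5. In shNFIB cells at day 5 *Etfa* was within the counting interval of shControl cells (0.03, -0.05 to 0.12), in contrast to shKDM4D (-0.40, -0.49 to -0.31) and shMLL1 cells (-0.37, -0.44 to -0.29). *Etfdh* stayed between 5.13 and 6.65 in the 8 libraries, the narrowest range of levels among these 3 genes.

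Of the peroxisomal β-oxidation genes, *Acox3* encodes an acyl-CoA oxidase for branched chains, *Ehhadh* and *Hsd17b4* the bifunctional enzymes, *Acaa1a* and *Acaa1b* thiolases, *Scp2* the sterol carrier protein 2, which also gives rise to a thiolase, and *Cat* catalase. The RPKM of *Scp2* (chromosome 4, 108043839 to 108144998) was 23.6, 23.6, 16.6 and 17.8 at day 0 and 78.6, 34.9, 23.2 and 36.9 at day 5. The control value at day 5 was more than 2 times any other, and the shNFIB value at day 5 lay within the range of the day 0 values. *Scp2* rose by a log2 ratio of 1.74 (1.66 to 1.81) in shControl and 1.05 (0.98 to 1.12) in shMLL1 cells, against 0.57 (0.48 to 0.66) in shKDM4D and 0.48 (0.36 to 0.60) in shNFIB cells. Relative to shControl cells at day 5 it was lower in shKDM4D (-1.17, -1.24 to -1.10), shNFIB (-1.76, -1.85 to -1.68) and shMLL1 cells (-1.09, -1.15 to -1.04). The difference of the changes from shControl cells was -1.17 (-1.28 to -1.05), -1.26 (-1.39 to -1.12) and -0.68 (-0.78 to -0.58) in the knockdown lines.

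The RPKM of *Cat* (chromosome 2, 103453849 to 103485160) was 43.9, 55.2, 43.2 and 34.1 at day 0 and 103, 103, 55.5 and 73.6 at day 5. In shKDM4D cells *Cat* differed from the control level at day 5 by less than the counting interval (-0.01, -0.06 to 0.04), while it was lower in shNFIB (-0.90, -0.97 to -0.83) and shMLL1 cells (-0.49, -0.54 to -0.44). Set directly against each other at day 5, shKDM4D cells were above shNFIB cells by 0.89 (0.82 to 0.96) and above shMLL1 cells by 0.48 (0.43 to 0.53) on the log2 scale. The log2 change of *Cat* was 1.24 (1.17 to 1.30) in shControl cells, 0.90 in shKDM4D cells, 0.36 in shNFIB and 1.11 in shMLL1 cells.

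*Hsd17b4* (chromosome 18, 50128201 to 50196269) had an RPKM of 30.3, 22.0, 19.5 and 30.8 at day 0 and 34.1, 20.6, 15.7 and 25.8 at day 5. Its shNFIB values were the lowest on both days, and the ratio of shNFIB to shControl cells passed 2-fold at day 5 (-1.12, -1.24 to -1.01) after -0.64 (-0.73 to -0.54) at day 0. *Acaa1a* was at 3.04, 2.56, 2.80 and 1.45 at day 0 and 6.42, 4.87, 5.42 and 5.60 at day 5. It rose in shControl cells (1.08, 0.88 to 1.27) and more in shMLL1 cells (1.95, 1.75 to 2.16), which began at day 0 below shControl cells by -1.07 (-1.31 to -0.83). The transcripts of *Acaa1a* and *Acaa1b* are 96% identical over 1450 aligned bases, so the division of reads between them is uncertain. *Acaa1b* had between 4 and 28 reads per library.

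*Ehhadh* had 3, 0, 9 and 2 reads at day 0 and 56, 1, 14 and 6 reads at day 5, and it is described although its RPKM did not reach 1, a choice made after its values were seen. The day 5 ratios to shControl cells were -5.97 (-11.30 to -3.43), -1.71 (-2.67 to -0.85) and -4.20 (-5.71 to -2.99), and the control change was 4.69 (3.06 to 7.01). The intervals of the knockdown ratios were wide but did not reach 0. *Acox3* stayed between 0.816 and 2.22, with a log2 change of 0.72 (0.53 to 0.92) in shControl and -0.23 (-0.44 to -0.02) in shKDM4D cells.

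*Pex11a* encodes a peroxisomal membrane protein of peroxisome division, *Pex5* the receptor that imports matrix proteins, *Pex13* part of the docking complex, *Pex19* the chaperone of membrane proteins, and *Abcd2* and *Abcd3* peroxisomal ABC transporters of fatty acyl-CoA. The RPKM of *Pex11a* (chromosome 7, 79735957 to 79743131) was 0.755, 0.193, 0.539 and 0.452 at day 0 and 2.72, 0.916, 1.63 and 1.76 at day 5, resting on 12 to 214 reads. *Pex11a* rose in all 4 lines, with log2 ratios of 1.85 (1.42 to 2.29), 2.25 (1.34 to 3.27), 1.59 (0.99 to 2.23) and 1.96 (1.53 to 2.42). The shKDM4D values were the lowest on each day, with ratios to shControl cells of -1.97 (-2.99 to -1.07) at day 0 and -1.57 (-2.01 to -1.14) at day 5.

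The RPKM of *Abcd2* (chromosome 15, 91145871 to 91191799) was 0.663, 0.448, 0.478 and 0.541 at day 0 and 1.57, 0.584, 0.934 and 1.22 at day 5, resting on 52 to 276 reads. *Abcd2* rose in shControl (1.25, 0.89 to 1.61) and shMLL1 cells (1.17, 0.86 to 1.49), and at day 5 it was lower past 2-fold in shKDM4D cells (-1.43, -1.84 to -1.04). At day 5 the level in shKDM4D cells was also lower than that in shMLL1 cells (-1.06, -1.45 to -0.69). The RPKM of *Pex13* was 3.58, 3.69, 2.39 and 2.27 at day 0 and 7.50, 4.93, 3.94 and 5.21 at day 5. It rose in shControl (1.07, 0.89 to 1.24) and shMLL1 cells (1.20, 1.03 to 1.37) and was lower than in shControl cells at day 5 in each knockdown line, by a log2 ratio of -0.60, -0.93 and -0.52.

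*Abcd3*, *Pex19* and *Pex5* had an interval above 0 from day 0 to day 5 in all 4 lines without passing 2-fold in any comparison. At day 5 the *Abcd3* values lay between 15.4 and 16.2, and no interval of its ratio to shControl cells left out 0. The *Pex19* and *Pex5* values of shMLL1 cells were the lowest at day 5, by -0.45 (-0.56 to -0.34) and -0.66 (-0.81 to -0.51) relative to shControl cells.

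The thioesterases *Acot1* (cytosolic) and *Acot2* (mitochondrial) release free fatty acids from acyl-CoA. *Acot1* had 0 to 2 reads per library, at or under the floor, and its transcript is 94.3% identical to that of *Acot2* over 1330 aligned bases, so the division of their reads is uncertain. The RPKM of *Acot2* (chromosome 12, 83987861 to 83993873) was 8.38, 6.43, 2.98 and 2.17 at day 0 and 5.65, 5.18, 7.99 and 7.32 at day 5. At day 0 the shNFIB and shMLL1 values were the lowest of the 8, with ratios to shControl cells of -1.49 (-1.79 to -1.20) and -1.95 (-2.20 to -1.70). At day 5 both lay above shControl cells (0.50, 0.24 to 0.75 and 0.37 (0.16 to 0.59)). *Acot2* therefore rose in shNFIB (1.42, 1.11 to 1.74) and shMLL1 cells (1.75, 1.51 to 2.00) and had negative log2 changes in shControl (-0.57, -0.80 to -0.34) and shKDM4D cells (-0.31, -0.57 to -0.06).

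**Figure D5:**
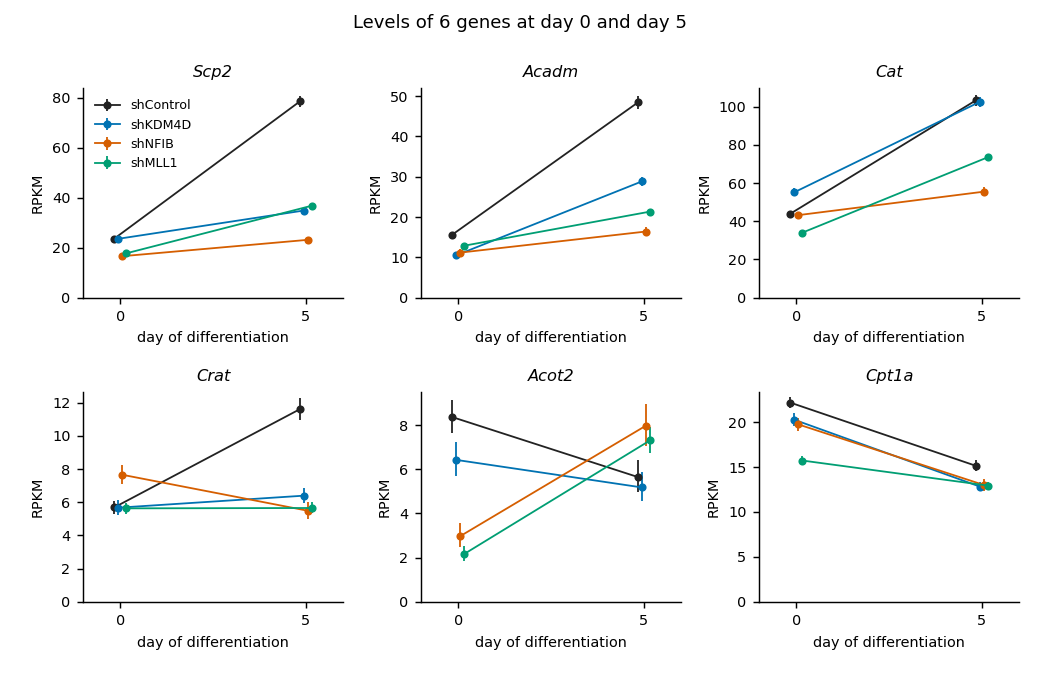
RPKM (y axis, from 0) at day 0 and day 5 (x axis, lines slightly offset) of 6 genes in the 4 lines, 1 library per point, with exact 95% Poisson counting intervals as bars. For *Scp2* and *Crat* the control line climbs farthest, *Cat* of shKDM4D cells ends beside the control, the *Acot2* lines cross, and *Cpt1a* declines in all 4.

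Of the 35 genes, 14 passed 2-fold in none of the 10 comparisons (60.2% of all 11513 genes), namely *Abcd3*, *Acadl*, *Acot1*, *Acox3*, *Cpt1a*, *Decr1*, *Eci2*, *Etfa*, *Etfb*, *Etfdh*, *Hadha*, *Hadhb*, *Pex19* and *Pex5*. At the other end, 8 genes were lower past 2-fold in at least 1 knockdown line at day 5 (9.61% of all genes), namely *Abcd2*, *Acadm*, *Cpt2*, *Crat*, *Ehhadh*, *Hsd17b4*, *Pex11a* and *Scp2*. The shNFIB line accounted for 6 of these (*Acadm*, *Cpt2*, *Crat*, *Ehhadh*, *Hsd17b4* and *Scp2*), the shKDM4D line for *Abcd2*, *Ehhadh*, *Pex11a* and *Scp2*, and the shMLL1 line for *Acadm*, *Crat*, *Ehhadh* and *Scp2*. Only *Ehhadh* among the 8 never reached an RPKM of 1, as every gene behind the share did.

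Other genes of the pathway were examined in lists, with values for at most 4 genes of a list that rose in shControl cells or were lower past 2-fold in several knockdown lines at day 5. Where more than 4 did, those with the highest control RPKM at day 5 were taken. Of 22 further fatty acid oxidation genes, 10 rose and 0 fell in shControl cells (13.0% and 8.56% of all 11513 genes), with a median log2 ratio of 0.81. In the knockdown lines 6 rose in shKDM4D cells (12.8%), 1 in shNFIB (12.6%) and 12 in shMLL1 cells (20.4%). Relative to shControl cells at day 5, 6 of the 22 were lower past 2-fold in the shKDM4D line (4.57% of all genes), 4 in the shNFIB line (5.67%) and 2 in the shMLL1 line (4.02%). The levels of *Acsl1*, which encodes an acyl-CoA synthetase, were 2.69, 2.69, 2.11 and 2.66 at day 0 and 36.4, 3.95, 1.72 and 1.58 at day 5. *Acsl1* stood apart by its size, at 3.76 (3.65 to 3.87) in shControl cells and at -3.21 (-3.31 to -3.10), -4.40 (-4.58 to -4.23) and -4.53 (-4.65 to -4.41) relative to them at day 5. *Ech1*, a dienoyl-CoA isomerase, *Acadsb*, a dehydrogenase of branched acyl-CoA, and *Decr2*, the peroxisomal dienoyl-CoA reductase, rose in shControl cells by log2 ratios of 1.62, 1.52 and 1.05, without passing 2-fold against shControl cells in any line at day 5.

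Of 17 other peroxins and peroxisomal membrane proteins, 3 rose in shControl cells (*Pex11g*, *Pxmp2* and *Pxmp4*), near the 13.0% of all genes that did, and the median was 0.41. The RPKM of *Pxmp4* was 3.13, 3.20, 3.54 and 2.47 at day 0 and 14.1, 11.8, 6.02 and 6.56 at day 5. That of *Pxmp2* was 0.845, 0.299, 0.357 and 0.807 at day 0 and 3.97, 0.308, 0.158 and 1.09 at day 5. Both were lower past 2-fold at day 5 in shNFIB and shMLL1 cells, *Pxmp2* also in shKDM4D cells. *Pex11g*, a relative of *Pex11a*, was at 0.409, 0.271, 0.410 and 0.146 at day 0 and 1.48, 0.844, 0.892 and 0.957 at day 5. Of 18 genes of the tricarboxylic acid cycle, which also act in mitochondria, 0 passed 2-fold in shControl cells (13.0% of all genes rose and 8.56% fell), with a median of 0.35. Against shControl cells at day 5, 0 passed 2-fold in any knockdown line, with medians of -0.41 in shKDM4D cells, -0.18 in shNFIB and -0.20 in shMLL1 cells.

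Of 12 nuclear receptors and coactivators known to act on these genes, 5 rose in shControl cells (13.0% of all genes). *Pparg* was at 8.20, 5.60, 6.02 and 3.34 at day 0 and 21.7, 8.21, 7.48 and 7.22 at day 5. At day 5 it was lower than in shControl cells by a log2 ratio of -1.40 (-1.55 to -1.25), -1.53 (-1.71 to -1.36) and -1.59 (-1.71 to -1.46). *Rxra*, its partner, was at 9.35, 13.1, 12.2 and 9.85 at day 0 and 23.8, 27.4, 15.0 and 16.0 at day 5, and reached a higher level in shKDM4D than in shControl cells at day 5 (0.20, 0.12 to 0.28). *Lpin1* encodes a phosphatidate phosphatase that also acts as a coactivator, and had an RPKM of 1.90, 2.12, 2.32 and 2.04 at day 0 and 6.39, 3.97, 2.44 and 4.47 at day 5. *Nrip1*, which encodes a corepressor of nuclear receptors, was at 2.37, 2.87, 4.25 and 3.29 at day 0 and 5.81, 3.53, 2.24 and 4.16 at day 5. Both rose in shControl cells and were lower past 2-fold at day 5 in shNFIB cells, by -1.39 (-1.56 to -1.22) and -1.38 (-1.54 to -1.22). *Ppara* and the coactivator *Ppargc1a* are named after their values were seen. *Ppara* had no reads in 6 libraries and 1 in each of the shMLL1 libraries. *Ppargc1a* was highest at day 5 in shMLL1 cells, at 4.01 against 2.00 in shControl cells.

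For comparison, of 11 PPAR targets of lipid storage, 10 rose in shControl cells (13.0% of all genes), with a median log2 ratio of 8.28. At day 5, 8, 9 and 9 were lower past 2-fold in shKDM4D, shNFIB and shMLL1 cells (4.57%, 5.67% and 4.02% of all genes), with medians of -3.91, -6.78 and -6.61. In shControl cells at day 0, *Plin1* and *Cidec* had 0 reads, *Adipoq* 1, *Cd36* 2 and *Lpl* 4, so the size of the median change is uncertain. *Fabp4*, *Plin1*, *Cidec*, *Lpl* and *Adipoq* are also among the 9 adipocyte markers, so the 2 lists are not separate. The control RPKM at day 5 was 277 for *Fabp4*, a fatty acid carrier, 258 for *Adipoq*, the hormone adiponectin, and 138 for *Cidec*, a lipid droplet protein, which were lower past 2-fold in all 3 lines. *Plin2*, which coats lipid droplets in many cell types, rose in shControl cells but was lower past 2-fold in none of the knockdown lines, and its shMLL1 level at day 5 was 63.5 beside a control level of 62.2. The sum of the 9 adipocyte markers was lower in all 3 knockdown lines at day 5, as were the medians of the fatty acid oxidation genes. The part of the adipocyte share of the cells in the differences of the fatty acid oxidation genes was not tested. The marker sums of shNFIB (12.01) and shMLL1 cells (12.3) were close. Most of each came from the markers *Pparg* (7.48 and 7.22) and *Cebpa* (3.66 and 2.42). *Fabp4* (0.38 against 1.75) and *Adipoq* (0.229 against 0.570) were lower in shNFIB than in shMLL1 cells, while *Lpl* was higher (0.151 against 0.0501). The summed RPKM of the fatty acid oxidation genes ran from 590 (shNFIB) through 648 (shKDM4D) to 679 (shMLL1). Whether the marker sum and the sum of these genes go together across the lines was not tested.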

How the data were processed

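Total RNA of the 8 samples was sequenced with a SMARTer library kit, and the authors mapped the reads to GRCm38/mm10 with CLC Genomic Workbench and deposited RPKM per gene symbol, which correct for exon length and mapped reads. Only the deposited RPKM values were used, without quantile normalization or a pseudocount. The values were multiplied by the merged exon length of GENCODE M21 and divided by what 1 read is worth in each library, which gave between 96.2% and 96.6% of the values from 1 to 1000 reads within 0.02 of a whole read. For 32 of the 35 genes all values were within 0.1 of a whole read, and the reads of *Cpt1a*, *Acaa2* and *Eci1* are approximate. The depth was 1.58e+07 to 3.82e+07 mapped reads, which limits the precision of genes with few reads. Groups were taken from the sample labels, with 1 library per condition, so no p-value is given. Log2 ratios were given exact 95% conditional (Clopper-Pearson) intervals, which cover counting error only. Differences of changes were given approximate (log-normal) 95% intervals from the reads of the 4 libraries. The exact intervals were tried on simulated Poisson counts, the model they assume, for genes with many reads. That trial covers neither genes with few reads, nor the approximate intervals, nor the spread between cultures. A ratio was called past 2-fold unless both libraries had 3 reads or fewer. Members were counted over all 35 genes whatever their level, because a filter passes a gene through the library in which it is high, and the other genes over the 11513 whose RPKM passed 1 in some library, of which 11448 have a single exon length in GENCODE M21 and so recovered reads and intervals. Medians were taken over the genes with more than 3 reads in at least 1 of the libraries compared. Values in all 8 libraries are given for genes that passed an RPKM of 1 and rose or fell past 2-fold in shControl cells or differed past 2-fold from them in a knockdown line at day 5, and for 1 or more genes of each other role. The genes and lists were chosen with earlier results of these data known. Promoters were taken from RefSeq (GRCm38.p6), and transcript identity and exon overlaps were computed from GENCODE M21. The alternatives were other scalings, pseudocounts, filters and thresholds. Python 3.11.15, pandas 2.3.3, numpy 2.4.6 and scipy 1.17.1 were used.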

Additional observations from a re-analysis of the deposited data

Results flagged for a closer look

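The change from day 0 to day 5 had opposite signs in shControl cells and in a knockdown line, each with a counting interval that left out 0, for 5 of the 35 genes. The share of all genes with such opposite signs is not given, so the 5 cannot be read as many or few. With 1 library per condition the difference between the lines was not tested. The log2 change of *Acadl* was 0.30 in shControl cells against -0.37 in shKDM4D cells, -0.42 in shNFIB and -0.14 in shMLL1 cells. That of *Acox3* was 0.72 in shControl against -0.23 in shKDM4D cells. For *Hsd17b4* it was 0.17 in shControl against -0.32 in shNFIB and -0.26 in shMLL1 cells. *Crat* had 1.03 in shControl against -0.48 in shNFIB cells. *Acot2*, the gene with the largest differences among these 5, had -0.57 in shControl against 1.42 in shNFIB and 1.75 in shMLL1 cells, and its low values in the latter 2 lines were those of day 0, at an RPKM of 2.98 and 2.17 against 8.38 in shControl cells.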

How the results depend on the processing

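Of the called ratios of single genes, none changed sign under another pseudocount or scaling. An added constant cannot reverse a ratio, and every scaling moved the median of all genes by less than 2-fold. The unchanged signs were therefore largely fixed beforehand and are no measure of robustness. *Gapdh* itself ranged from an RPKM of 159 to 326, and dividing by it moved the median of all genes by up to 0.64 on the log2 scale, while quantile normalization moved it by up to -0.29, median-of-ratios scaling by up to -0.16 and leaving out the ribosomal RNA-like genes by up to -0.11. With 1 added to each RPKM, 7, 2, 1 and 6 genes rose in shControl, shKDM4D, shNFIB and shMLL1 cells, 0 and 1 were lower past 2-fold in shKDM4D and shMLL1 cells at day 0 and 1 and 2 at day 5, and the median change of shMLL1 cells was 0.59. With quantile normalization, which gives values for 31 of the 35 genes, 3, 1 and 4 rose in the knockdown lines, 1 was lower in shKDM4D and 1 in shMLL1 cells at day 0, and the median change of shMLL1 cells was 0.52. At 1.5-fold, 25, 15, 16 and 23 genes rose, 3 and 9 were lower in shNFIB and shMLL1 cells at day 0, and 14, 14 and 8 were lower in the knockdown lines at day 5. Divided by *Gapdh*, 16 genes rose in shKDM4D cells and 0 were lower in shNFIB cells at day 0. The median changes were then 0.99 in shKDM4D and -0.0049 in shNFIB cells, and the day 0 medians against shControl cells were -0.54 (shKDM4D), 0.48 (shNFIB) and -0.51 (shMLL1), with -0.73 for shMLL1 at day 5. Among genes with an RPKM over 1 in some library, and likewise over 2, 3 rose in shKDM4D cells and 1 was lower there at day 0, and with an RPKM over 2, 2 were lower there at day 5. Taken as a difference of changes, 2 genes were lower past 2-fold in shKDM4D and 2 in shMLL1 cells, with medians of -0.19 and -0.051. The background shares ranged from 8.22% to 31.2% without a filter, from 1.20% to 18.5% at an RPKM over 2 and from 1.42% to 19.6% among protein coding genes. Shares of all genes are not given for the other scalings, the pseudocounts, 1.5-fold and differences of changes past 2-fold, so those counts have no background. The causes of these shifts were not tested. No paired analysis was possible because each condition has 1 library, and none could be left out. Genes with few reads, among them *Cpt1b*, *Ehhadh*, *Acaa1b* and *Acot1*, are limited by depth.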
